A study of Caenorhabditis elegans with 12 samples.

Results

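The vehicle controls are 3 of the 12 arrays of this series, chosen by their label, and they show which genes were bright in whole fourth-stage (L4) larvae and how far 3 biological replicates lay from each other. Each array measured total RNA of whole, age-synchronous wild-type N2 Caenorhabditis elegans. First-stage larvae, about 2000 to a plate, were raised at 20 °C to L4 on nematode growth medium with Escherichia coli OP50 as food and ethanol at 1% of volume, the solvent that the other 9 larval samples received together with a fatty acid at 1000 µM. Those acids were linoleic acid (LNA) in 3 samples, GLA (gamma-linolenic acid) in 3 and DGLA (its dihomo form) in 3. The series describes these controls as worms without treatment, while its treatment text has the ethanol added to their plates too. All groups share the N2 strain, the food and the ethanol. The series calls the samples biological replicates, and the labels do not say whether they came from separately synchronised populations or how many hours after plating each was taken.

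The values are log2 signals on a whole-transcript Affymetrix array, made by the authors with robust multi-array average (RMA), which puts all arrays on 1 scale. Of 29317 probe sets, 25546 carry exactly 1 gene symbol, and they stand for 25478 genes. The other probe sets name several genes (646) or none (3125). Of the 25478 genes 18799 are protein-coding and 5972 are non-coding RNA genes. A gene's level is the mean log2 signal over the 3 arrays, and its percentile is the rank of that mean among all 25478 genes. The median log2 signal over genes was 4.54, the lower quartile was 2.98 and the upper quartile 6.86. A signal also depends on how well a gene's probes bind, so ranks between genes are ranks of signal and not of RNA molecules, and the files give no detection limit. Precision is limited by there being 3 arrays.

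The L4 stage is the last larval stage. The hermaphrodite germ line makes sperm in it and then turns to oocytes, the vulva and the uterus take shape, and the epidermis builds the adult cuticle under the larval one, which is shed at the final molt. The larval body is a small number of tissues: striated body wall muscle, an epidermis with its seam cells that secretes the collagen cuticle, a pharynx that pumps food, an intestine that is also the fat store and the later source of yolk, a nervous system, an excretory canal and the gonad. Each gene list used here was read against the whole ranking, in which 25% of all genes are by construction in the top 25% by mean signal and 25% in the bottom 25%.

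The arrays agreed closely in level. The median over genes was 4.54 on control 1, 4.53 on control 2 and 4.56 on control 3. Across genes, which are not independent replicates, the correlation was 0.99483 between control 1 and control 2, 0.99293 between control 1 and control 3 and 0.99397 between control 2 and control 3. With the other 11 arrays of the series, across the 1-symbol probe sets, the control arrays had a median correlation of 0.99355, 0.99364 and 0.99281, while arrays LNA 2 (0.98974) and LNA 3 (0.99097) had the lowest of the 12. Of the 12739 genes above the median signal, 14 differed at least 2-fold between control 1 and control 2, 42 between control 2 and control 3 and 113 between control 1 and control 3.

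The brightest protein-coding genes included genes of the cuticle, of translation and of energy supply. The cuticle collagen col-10 led with log2 signals of 13.57, 13.59 and 13.72 on controls 1 to 3 (13.63 ± 0.08, SD, n = 3). The translocon subunit trap-3, which helps bring new proteins into the endoplasmic reticulum, followed at 13.40 ± 0.02, and a second collagen, dpy-4, at 13.33 ± 0.10. Then came the ribosomal protein rps-4 (13.31 ± 0.04), the antizyme oaz-1 (13.28), a regulator of polyamine synthesis, and the ATP synthase subunit atp-1 (13.14 ± 0.04). The neighbours dpy-4 and rps-4 lay closer together than the spread of either over the arrays. Of the 30 brightest, 7 were cytosolic ribosomal proteins, 6 were members of the collagen list and 2 were proteins of the mitochondrial genome, COX1 and COX3 (12.89). The rest included the muscle myosin unc-54 (12.92), the elongation factor eef-2 (12.93), the ubiquitin-conjugating enzyme let-70, the small GTPase arf-1 (13.10), the nucleoside diphosphate kinase ndk-1 (12.91), the cathepsin B-like protease cpr-6 (12.87) and the proton pump subunit vha-13 (12.79).

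Non-coding genes were mostly dim, and the bright exceptions included RNAs that take part in making proteins. Of the 5972 annotated as ncRNA, 0.971% were in the top 25% and 42.6% in the bottom 25%, with a median signal of 3.22, against 33.3% and 18.9% of the 18799 protein-coding genes, with a median of 5.55. The ribosomal RNA gene rrn-2.1 was the brightest gene of all, at 13.89, 13.89 and 13.82. A second ribosomal RNA gene, rrn-4.5, reached 12.90 ± 0.07. The brightest 8 also held 2 genes for the RNA of the signal recognition particle, srpr-2.1 (12.08) and srpr-2.2 (11.88), and rpr-1 (11.97), the RNA of ribonuclease P. The others were the unnamed loci C30E1.9 (12.08), W06H8.5 (11.69) and F31C3.15 (11.39). The 607 pseudogenes had a median of 3.23. The small RNAs let-7, lin-4, mir-48, mir-84 and mir-241 had no probe set with their symbol alone and were not analysed here.

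Among the 14 tissue lists, body wall muscle had the highest median and glia the lowest; by the mean over members glia, at 4.83, lay above male-specific genes (3.76) and sensory cilia (3.96). Of 23 muscle genes 22 were in the top 25%, and the median signal was 9.72 against 4.54 over all genes. The genes of the sarcomere led. The myosin heavy chain unc-54 gave 12.92 ± 0.07, the troponin I gene unc-27 12.78, 12.71 and 12.71, and the troponin T gene tnt-2 12.32, 12.33 and 12.43. The widest gap between the highest and the lowest array among these 3 genes was 0.14, for unc-54. The dimmest was hlh-1, the transcription factor that specifies muscle, at 4.71, 4.93 and 4.91.

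**Figure D1:**
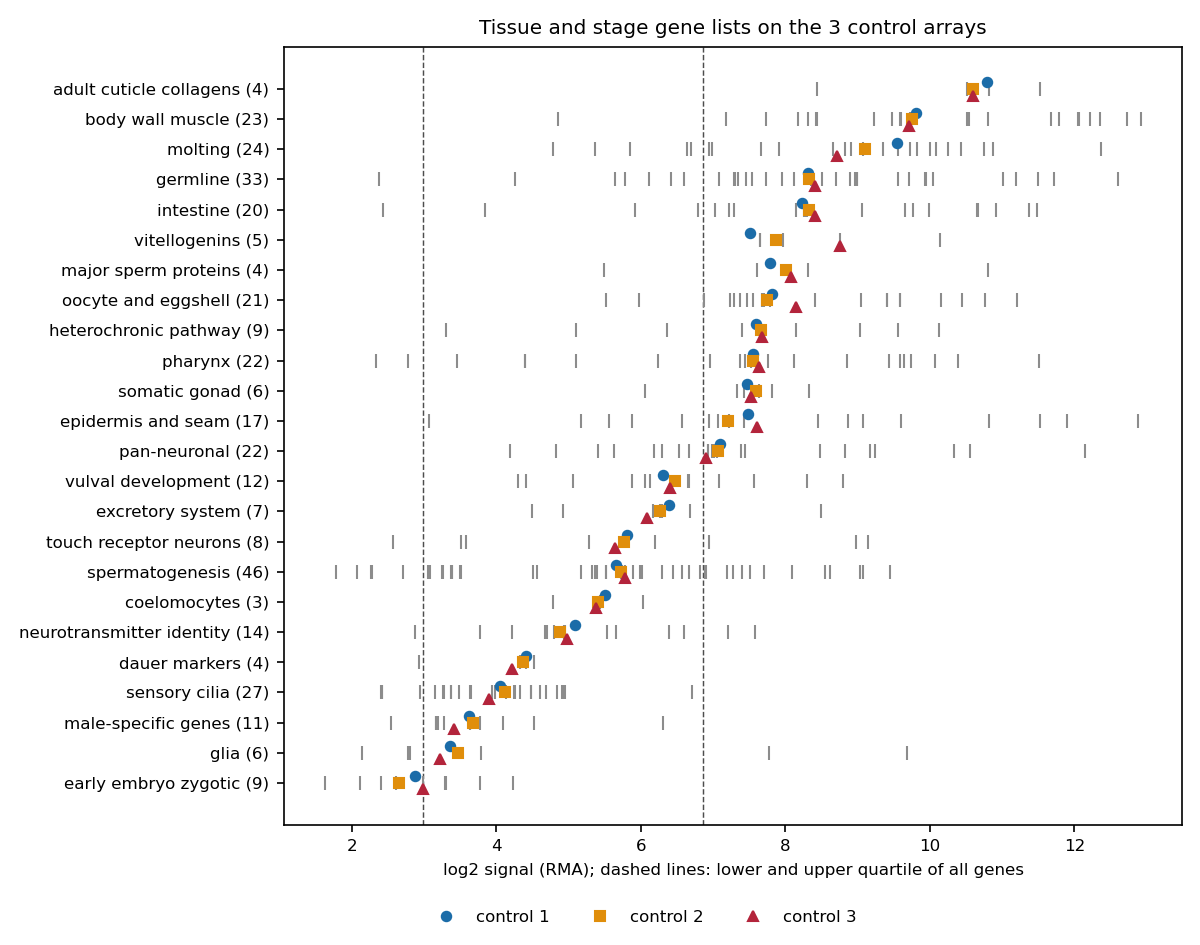
Log2 RMA signal (horizontal axis) of the tissue and stage gene lists, brightest list on top, with the number of measured genes in brackets and the lists added later left out. Grey ticks are single genes at their mean over the 3 control arrays, and the coloured circle, square and triangle are the list median on controls 1, 2 and 3; dashed lines mark the quartiles of all genes, 2.98 and 6.86. Muscle, molting, germline and intestine medians lie right of the upper quartile on every array, and among the lists drawn the vitellogenin and molting medians are spread widest between arrays.

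The germline list had a median of 8.35, with 26 of 33 genes in the top 25%. The RNA helicase cgh-1 was its brightest gene, at 12.57, 12.55 and 12.67. It was followed by the translational repressor gld-1 (11.67, 11.66 and 11.83) and the zinc finger protein mex-5 (11.37, 11.45 and 11.67). The Argonaute csr-1, which binds small RNAs against germline-expressed genes, reached 11.19 ± 0.06. The Notch receptor glp-1, which keeps germline stem cells dividing, was lower at 7.97, 7.95 and 7.96. At the bottom stood the Nanos gene nos-2, known from the embryo's primordial germ cells, with 2.19, 2.40 and 2.54. The meiotic chromosome axis genes htp-1 (4.26) and htp-2 (7.73) are near-identical copies, so their single values are uncertain.

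The intestine list had a median of 8.29, with 16 of 20 genes in the top 25%, and its order with the germline list was not settled: by the mean over members the intestine had 8.35 and the germline 8.29. Products of the gut lumen and its brush border were brightest. The microvillar actin act-5 gave 11.45, 11.49 and 11.48, the lysozyme lys-8 11.41, 11.36 and 11.34, and the proton pump subunit vha-6 10.97, 10.87 and 10.88. The GATA factor elt-2, the master regulator of the gut, was far dimmer (7.02, 7.13 and 6.93), and so was the gut esterase ges-1 (7.24, 7.34 and 7.27). The ferritin ftn-1 (3.86, 3.82 and 3.86) and the metallothionein mtl-1 (2.39, 2.31 and 2.62), both known as metal-inducible, were below the median of all genes, while their relatives ftn-2 (12.02 ± 0.05) and mtl-2 (8.30 ± 0.19) were in the top 25%.

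Pharynx, somatic gonad and epidermis had medians between 7 and 8. Of 22 pharynx genes 15 were in the top 25%, with a median of 7.57. The pharyngeal myosins myo-1 (10.18, 10.06 and 9.99) and myo-2 (9.71, 9.55 and 9.51) were bright and even across arrays. The highest member was abu-14 (11.44, 11.40 and 11.70), one of a family of repeat-rich secreted proteins of the pharynx. The FoxA factor pha-4, which specifies the organ, gave 7.56, 7.44 and 7.58, and phat-3, a toxin-like gland protein, was lowest at 2.23, 2.32 and 2.46. Of 6 somatic gonad genes 5 were in the top 25%, with the sheath cell homeobox gene ceh-18 highest (8.32 ± 0.19). The Notch ligand lag-2, made by the distal tip cell, was the exception at 5.94, 6.03 and 6.20. For the epidermis 12 of 17 genes were in the top 25%, with a median of 7.43. The cuticle collagens sqt-3 (12.96, 12.88 and 12.82) and dpy-13 (11.90, 11.86 and 11.92) led, and the nuclear receptor gene nhr-74 was lowest (3.07 ± 0.24).

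Genes used in all neurons were brighter as a list than genes of single neuron classes. Pan-neuronal genes had a median of 6.99, with 14 of 22 in the top 25%. The synaptic vesicle protein snb-1 (synaptobrevin) gave 12.14, 12.17 and 12.13, and the neuropeptide-processing enzymes egl-3 (10.58, 10.60 and 10.48) and egl-21 (10.33, 10.36 and 10.30) came next. Next to these, the markers of single classes ranged widely. The 14 transmitter identity genes had a median of 4.94, with the GABA-making enzyme unc-25 highest (7.56, 7.66 and 7.51) and unc-46, which works with the vesicular GABA transporter, lowest (2.89, 3.00 and 2.75). The 8 touch neuron genes ran from the tubulin mec-12 (9.14, 9.18 and 9.10) and the tubulin acetyltransferase mec-17 (8.84, 9.13 and 8.95) to the channel subunit mec-4 (3.73, 3.48 and 3.55) and the LIM homeobox gene mec-3 (2.58, 2.58 and 2.53).

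Sensory cilia, glia and male genes were low. Of 27 genes of cilium assembly none was in the top 25% and 4 were in the bottom 25%, with a median of 3.98. The RFX factor daf-19, which switches them on, was the brightest (6.89, 6.71 and 6.54), and the Bardet-Biedl homolog bbs-2 the dimmest (2.39, 2.29 and 2.54). Of 6 glia genes the glutamate transporter glt-1 (9.72, 9.65 and 9.70) and daf-6 (7.86, 7.81 and 7.67) were in the top 25% and 3 were in the bottom 25%, so the list is split and its median of 3.30 describes few of its members. The male list had a median of 3.64 and no member in the top 25%. Its highest member was mab-3, a DM-domain factor of male development, at 6.78, 6.60 and 5.53, and the polycystin pkd-2 of male sensory neurons gave 3.16 on each array. The 7 excretory genes (median 6.26, led by the chloride channel exc-4 at 8.49 ± 0.07) and the 3 coelomocyte genes (median 5.43) lay between these and the large tissues. In RNA of whole larvae, fewer cells of a type and less RNA of a gene per cell cannot be told apart.

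Markers of other ages were read to check the stage. The label L4 was set against genes of dauer larvae, early embryos, sperm, oocytes and adults. The 4 dauer genes had a median of 4.37 and the 9 early zygotic genes, which switch on in the young embryo, one of 2.99, and neither list had a member in the top 25%. The endoderm gene end-1 gave 3.46, 3.16 and 3.25, and med-1 1.57, 1.56 and 1.75. In contrast, 19 of 21 oocyte and eggshell genes, all 5 vitellogenins measured and all 4 adult cuticle collagens were in the top 25%.

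Sperm genes were measured unevenly. The major sperm proteins, which move the crawling sperm, are a family of near-identical genes, and 30 probe sets that name several genes hold a member. Only 4 had a probe set of their own. Of these msp-78 was high (10.74, 10.87 and 10.81), msp-38 and msp-33 were intermediate (8.31 ± 0.17 and 7.60 ± 0.19) and msp-3 was lowest (5.28, 5.59 and 5.61). The 46 other genes of spermatogenesis had a median of 5.73, with 13 in the top 25% and 5 in the bottom 25%. The brightest were spe-55 (9.45 ± 0.07), the vesicle-sorting gene spe-39 (9.08 ± 0.07) and spe-18 (9.04 ± 0.13), and the dimmest was ssp-19 at 1.79 ± 0.25.

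Oocyte genes had a median of 7.79, above that of the 46 spermatogenesis genes. The 4 major sperm proteins had a median of 7.96, but their order with the oocyte list was not settled. By the mean over members the oocyte list had 8.404 and the major sperm proteins 8.054. The oocyte median was the higher on controls 1 and 3 and the lower on control 2. The chondroitin proteoglycan cpg-2, a layer of the eggshell, gave 11.05, 11.13 and 11.42, the chitin-binding protein cbd-1 10.63, 10.77 and 10.89, and cpg-1 10.36, 10.27 and 10.73. The yolk receptor rme-2 gave 7.37 on each of the 3 arrays. The yolk proteins that it takes up are made in the gut of adults. Of the vitellogenins vit-6 was the brightest (9.72, 10.18 and 10.53), then vit-1 (8.71, 8.80 and 8.76), vit-2 (7.52, 7.87 and 8.52), vit-4 (7.07, 7.58 and 8.30) and vit-5 (6.97, 6.63 and 9.33). The level of vit-1 was even across arrays, whereas each of the other 4 was highest on control 3. The place of vit-5 in this order is not settled, since its range covers the means of vit-1, vit-2 and vit-4. vit-3, a close relative of vit-4 and vit-5, had no probe set with its symbol alone.

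Regulators of developmental timing had a median of 7.65 and vulval genes one of 6.39. Of the 9 heterochronic genes with a probe set of their own 6 were in the top 25% and none in the bottom 25%. Among them lin-66 was brightest (10.26, 10.16 and 9.94), the period homolog lin-42 was next (9.86, 9.62 and 9.19) and then the F-box gene dre-1 (9.04 ± 0.09). Below these lay 3 factors of earlier larval stages. They were lin-14 (7.33, 7.34 and 7.51), hbl-1 (6.34, 6.27 and 6.49) and the RNA-binding protein lin-28 (4.95, 5.20 and 5.16). Of these lin-14 was still in the top 25%. The lowest of the 9 genes was lin-46, with a mean of 3.31, so low signals were not confined to those factors. Of 12 vulval genes 4 were in the top 25%, the homeobox genes cog-1 (8.86, 8.68 and 8.86) and lin-11 (8.35, 8.25 and 8.30), the EGF-like signal lin-3 (7.58, 7.55 and 7.55) and the Hox gene lin-39 (7.05, 7.11 and 7.11). The EGF receptor let-23 gave 6.60, 6.74 and 6.62, the Notch receptor lin-12 4.40, 4.43 and 4.43, and the metalloprotease zmp-1 was lowest (4.30 ± 0.03). Vulval genes varied little between arrays, with a median SD of 0.0511 against 0.1268 over all genes. Over 2 arrays, without control 1, 2 or 3, the vulval value was 0.0368, 0.0397 and 0.0324.

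Each list of housekeeping machinery with measured genes had more members in the top 25% than outside it. Of 75 cytosolic ribosomal proteins 71 were in the top 25%, with a median of 11.25, and only rpl-37.1 (2.55 ± 0.06) was in the bottom 25%. The other 3 outside the top were rpl-29 (4.78), rpl-42 (5.06) and rps-15A (6.14). The 18 subunits of the vacuolar proton pump had a median of 11.21, from vha-13 (12.79 on each array) to vha-18 (5.80, 6.00 and 6.11). The TCA and glyoxylate cycle had a median of 10.75 over 23 genes, led by the malate dehydrogenases mdh-2 (12.43 ± 0.11) and mdh-1 (12.39 ± 0.02), and icl-1, the glyoxylate enzyme of fat-to-sugar conversion, gave 10.56, 10.41 and 10.16. The proteasome had 32 of 33 subunits in the top 25%, with a median of 10.14. Its brightest was pas-6 (12.05) and its dimmest rpn-6.2 (6.84). Mitochondrial ribosomal proteins (median 7.50, 70 genes) were lower than cytosolic ones, and none passed mrpl-9 at 9.55.

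**Figure D2:**
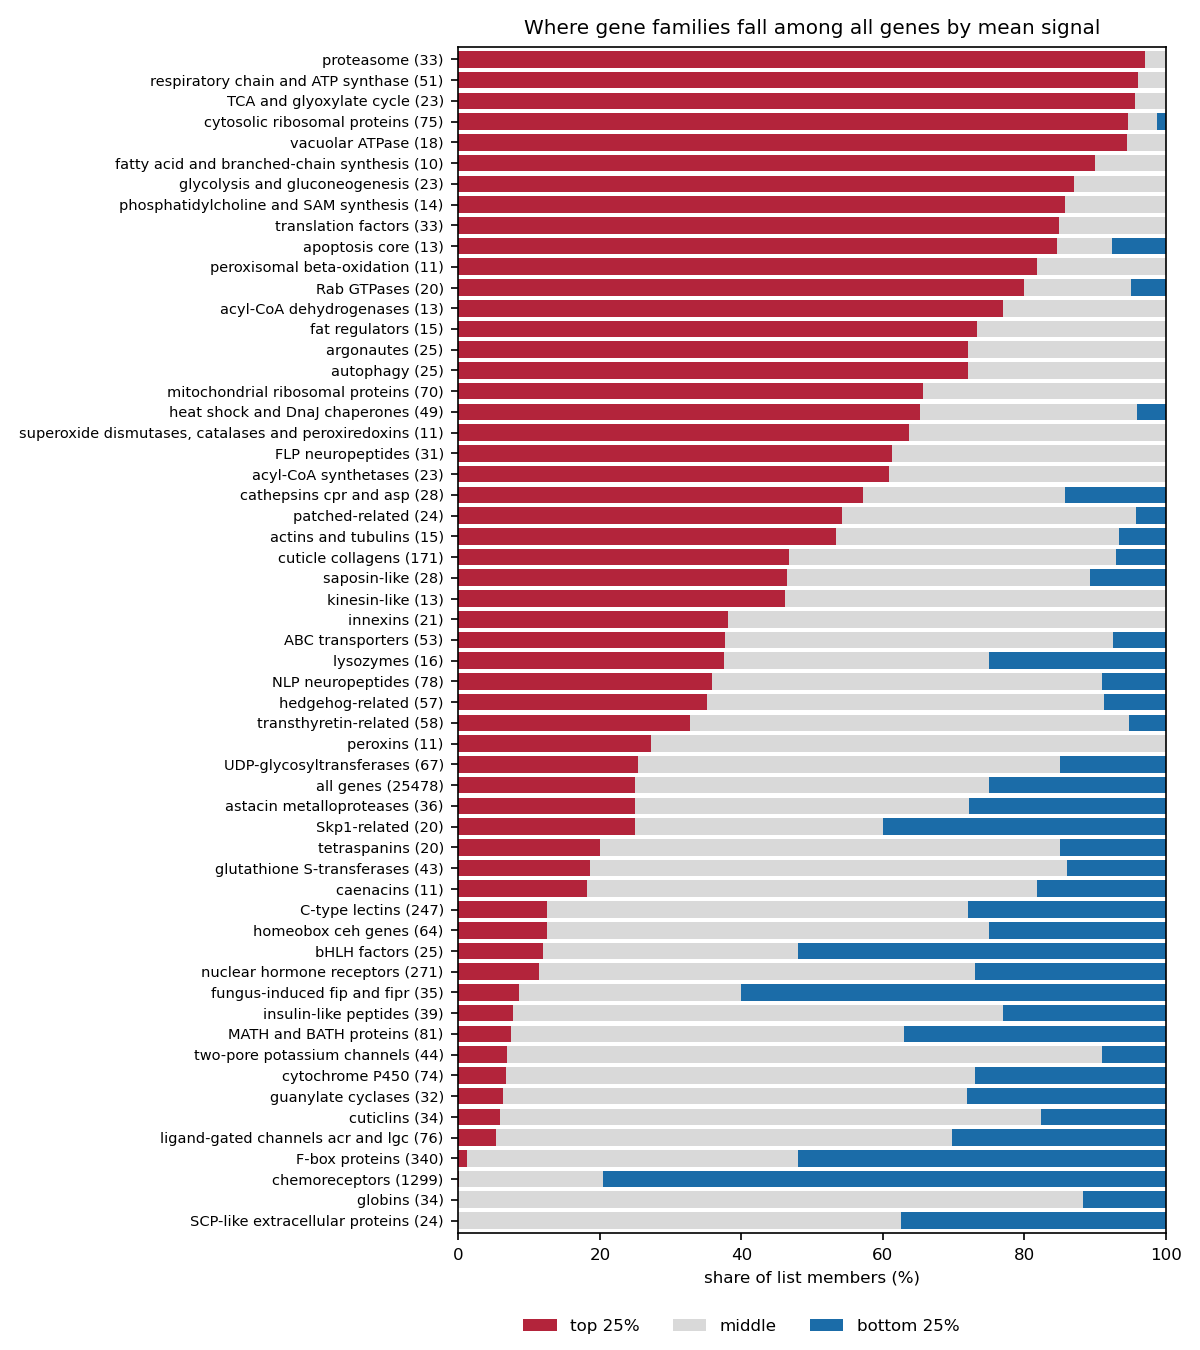
Share of the measured members of each machinery, lipid and gene family list with 10 or more genes, the list added later left out (horizontal axis, percent) that fell in the top 25% (red), the middle (grey) and the bottom 25% (blue) of all 25478 genes by mean signal, with the number of genes in brackets. The row for all genes shows 25% on either side; proteasome subunits lie almost wholly in red, and 79.6% of the chemoreceptors lie in blue.

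Chaperones covered almost the whole scale. The cytosolic Hsp70 hsp-1 (12.65) and the mitochondrial chaperones hsp-6 (12.59) and hsp-60 (11.86), which fold proteins at all times, were bright. The small heat shock genes hsp-16.41 (1.69) and hsp-16.20 (2.58), known for their induction by heat, were in the bottom 25%. In the apoptosis list 11 of 13 genes were in the top 25%, among them the caspase ced-3 (8.20, 8.29 and 8.24), its activator ced-4 (7.11, 7.17 and 7.30) and their inhibitor ced-9 (7.45, 7.45 and 7.49). The BH3-only trigger genes egl-1 (2.98, 2.98 and 3.12) and ced-13 (2.68, 2.86 and 2.67) were at the bottom.

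Desaturases and elongases were mostly in the top 25% in these larvae, which were given no fatty acid. Worms make polyunsaturated fatty acids from their own precursors with a chain of desaturases and elongases. Of 7 desaturases 6 were in the top 25%. The delta-12 desaturase fat-2, which makes linoleic acid, gave 11.73, 11.87 and 11.72, and the omega-3 desaturase fat-1 10.96, 11.19 and 10.98. The delta-9 desaturases differed widely, with the stearoyl-CoA enzymes fat-6 at 10.71, 10.77 and 10.67 and fat-7 at 8.50, 8.88 and 8.68 and the palmitoyl-CoA enzyme fat-5 at 4.14, 4.22 and 4.64. The later steps fat-4 (9.29, 9.26 and 9.15) and fat-3 (8.60, 8.60 and 8.41) lay between. The elongase elo-1 (11.78, 11.73 and 11.71), which lengthens polyunsaturated acids, was brighter than elo-5 (10.90 ± 0.16) and elo-2 (10.11, 10.23 and 10.26).

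Lists of fat storage and breakdown were uneven. Lysosomal lipases had a median of 5.23, with 2 of 8 in the top 25%, and peroxins, which build peroxisomes, had 3 of 11 there. The lipid droplet protein plin-1 gave 11.70, 11.63 and 11.79, and the lipase atgl-1 9.42 ± 0.05. The acyl-CoA dehydrogenase acdh-1 (11.91, 11.99 and 11.99) stood more than 2 log2 units above the next of 13, acdh-7 (9.62 ± 0.13). Among the fatty acid and retinol binding proteins far-1 (12.31 ± 0.03) and far-2 (10.96 ± 0.03) were high and far-3 (4.20 ± 0.15) and far-4 (2.54 ± 0.03) low. The S-adenosylmethionine synthetase sams-1 (12.06 ± 0.04) and the methyltransferase pmt-2 (11.59 ± 0.09), which feed phosphatidylcholine synthesis, led their list. Of the regulators, daf-16 (10.55 ± 0.02), mdt-15 (9.78 ± 0.11) and nhr-49 (9.29 ± 0.05) were bright, and sbp-1, the SREBP homolog, was lower at 6.54 ± 0.15.

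The gene families listed next had medians below that of all genes, and they differed in how many members were in the bottom 25%. Other large families had medians above that of all genes, such as UDP-glycosyltransferases (67 genes, 5.19) and cuticle collagens (171 genes, 6.63). Of 1299 chemoreceptor genes 1034 were in the bottom 25%, with a median of 2.47, and the single member of the top 25% was srv-1 at 7.70. F-box proteins (340 genes, median 2.90) had 52.1% in the bottom 25%. Nuclear hormone receptors, 271 ligand-regulated factors, had a median of 4.21 and 26.9% in the bottom 25%. That share was near the 25% of all genes but above the 18.9% of protein-coding genes. The receptors nhr-17 (10.34), nhr-97 (9.73) and nhr-41 (9.56) were at the top and nhr-261 at the bottom. C-type lectins, many of them secreted defence proteins, had a median of 3.78 over 247 genes. Their share in the bottom 25%, 27.9%, was also above that of protein-coding genes, while clec-63 reached 11.92 and clec-1 11.16. Cytochrome P450 genes (74, median 4.05, 20 in the bottom 25%) were led by cyp-35C1 (9.94), a member of a fat- and xenobiotic-related family. Of 35 fungus-induced peptide genes 21 were in the bottom 25%, while fipr-21 gave 9.83.

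Signalling peptides differed by class. The FMRFamide-like neuropeptide genes had a median of 7.17 over 31 genes, with none in the bottom 25% and flp-28, flp-10 (9.78) and flp-4 (8.44) at the top. The 78 genes of the nlp class had a median of 6.13 and ran from nlp-24 (11.44) to nlp-5 (1.93). The 39 insulin-like peptides were lower, with a median of 4.24 and 3 in the top 25%, ins-27 (8.23), ins-30 (7.84) and ins-5 (7.36). Hedgehog-related genes (57, median 5.04), secreted proteins of the epidermis for the most part, had bright members in wrt-4 (12.07), grd-5 (12.01) and grl-16 (11.45).

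Cuticle collagens were split. Of 171 with a probe set of their own 80 were in the top 25% and 12 in the bottom 25%, with a median of 6.63 and a range from col-10 (13.63) to dpy-14 (2.01). Sets of collagens are known to be made in turn within each molting cycle and to differ between stages. The collagens bli-1 and bli-2, which form the struts of the adult cuticle, gave 11.30, 10.85 and 10.29 and 11.75, 11.63 and 11.18. The adult collagen col-19 gave 7.90, 8.47 and 8.95 and col-7 10.28, 10.35 and 10.92. The struts were highest on control 1 and lowest on control 3, and the other pair the reverse.

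Spread between the 3 replicates depended on signal, and it was not even between gene groups. The median SD of a gene was 0.1441 in the bottom 25% by signal, 0.1686 and 0.1317 in the next 2 bins of the same size and 0.0819 in the top 25%. A gene was therefore said to have a high spread when its SD was in the top 10% among genes of like signal, which holds for 10% of all genes by construction. Among the 51 respiratory chain and ATP synthase genes and the 33 proteasome subunits no gene had a high spread, and among 75 ribosomal proteins 1 had. At the other end, 63 of 171 cuticle collagens, 13 of 24 molting genes, 8 of 21 oocyte genes, 4 of 5 vitellogenins and all 4 adult cuticle collagens had one. Hedgehog-related genes (16 of 57), fungus-induced peptides (10 of 35), pharynx genes (7 of 22) and epidermis genes (5 of 17) were also above the 10%. Some of these lists share genes, so their counts are not separate. The epidermis list holds the collagens dpy-7, bli-1 and bli-2 and the hedgehog-related wrt-2.

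**Figure D3:**
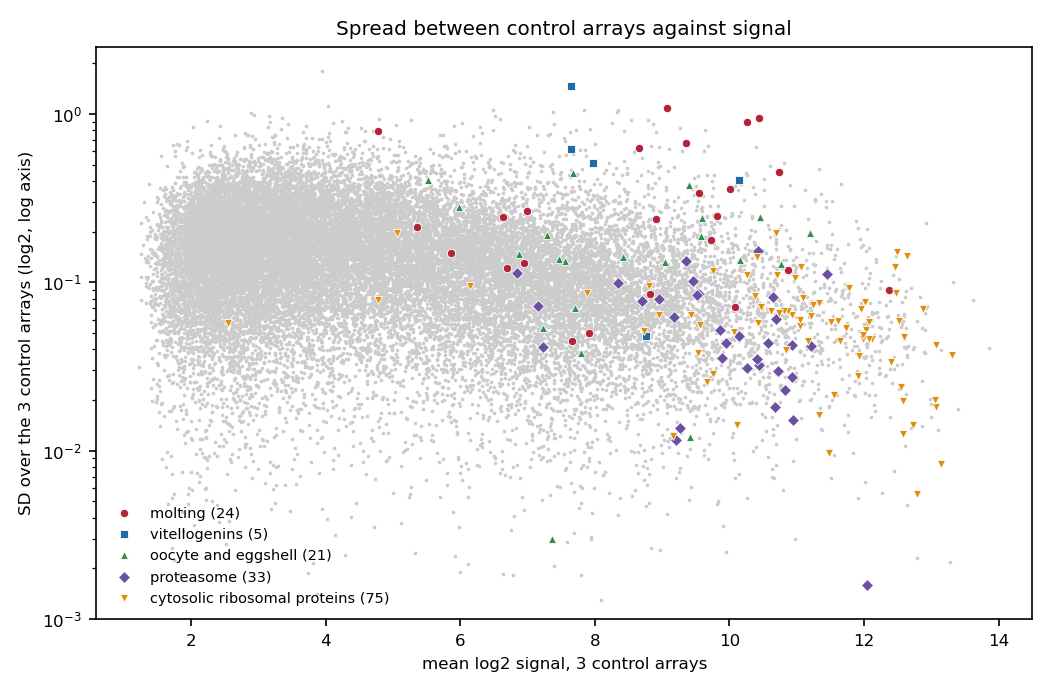
SD over the 3 control arrays (vertical log axis, log2 units) against mean log2 signal (horizontal axis) for all 25478 genes (grey) and for 5 gene lists in colour. Proteasome and ribosomal protein genes lie low in the cloud, while vit-5 (SD 1.47) and several molting genes stand at its upper edge.

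The genes with the largest spread included a vitellogenin and genes of the apical matrix and of the molt. Among genes above the median signal vit-5 had the largest SD, 1.47, with a 6.49-fold gap between control 3 and control 2. The Kunitz-type protease inhibitor mlt-11, which is needed for molting, gave 10.01, 9.30 and 7.89 (SD 1.08), and the collagen dpy-2 of the cuticle furrows 7.32, 6.86 and 5.30 (SD 1.06). Both were lowest on control 3. The zona pellucida domain proteins noah-1 (11.24, 10.67 and 9.39) and noah-2 (11.08, 10.38 and 9.31) and the lipocalins lpr-3 (9.60, 8.98 and 7.79), lpr-4 (9.22, 8.59 and 7.20) and lpr-5 (9.18, 8.68 and 7.16) belong to the temporary matrix that lines the epidermis while a new cuticle is laid down. The hedgehog-related wrt-2 (9.59, 9.11 and 7.90), the cadherin cdh-12 (9.31, 8.79 and 7.52), mltn-9, idpp-1, R07E3.6, T26C5.2, T12E12.6 and T14B4.19 had the same order of arrays. Of the 20 genes with the largest SD, control 3 was the array farthest from the other pair and low in 15, and far and high in 2, vit-5 and K07E1.1. The other 3 were nspb-4 (6.63, 5.50 and 7.43), nspb-7 (3.74, 5.08 and 5.55) and the non-coding F42A10.12 (6.04, 4.47 and 4.65).

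**Figure D4:**
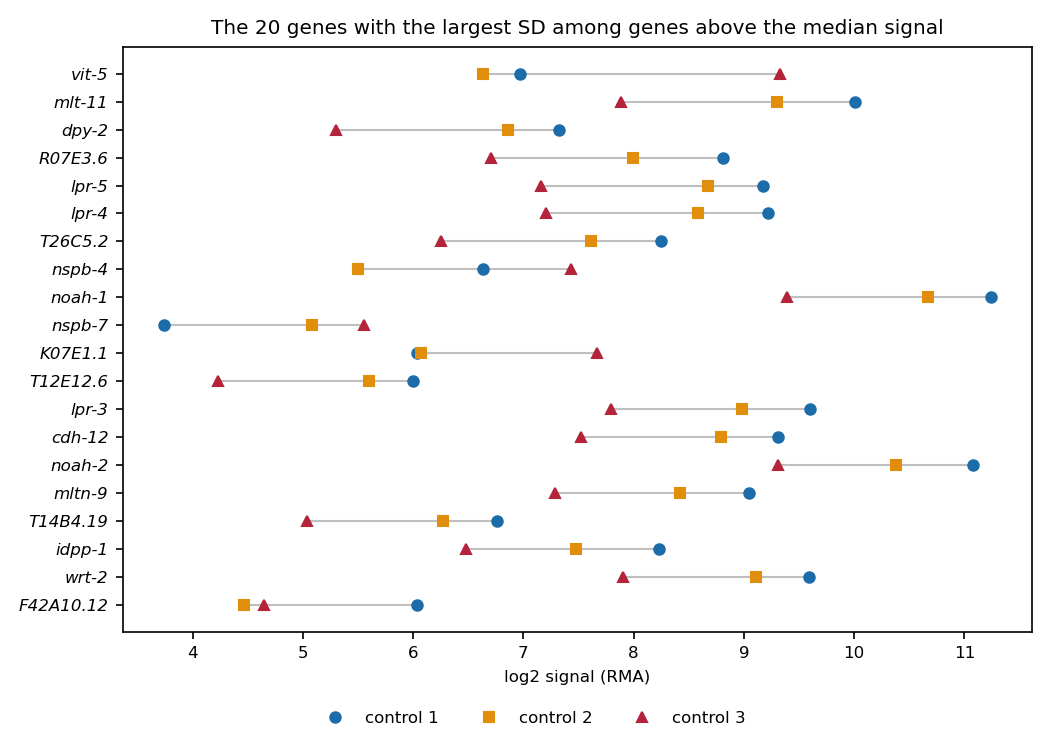
Log2 RMA signal (horizontal axis) on control 1 (blue circle), control 2 (orange square) and control 3 (red triangle) of the 20 genes with the largest SD among genes above the median signal, largest on top, with a line from the lowest to the highest array. Control 3 lies farthest left and apart in 15 of the 20, and farthest right and apart for vit-5 and K07E1.1.

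Over all 12739 genes above the median signal, control 3 was the array apart and low in 20.8% and apart and high in 19.4%. Among the 152 such genes with an SD of at least 0.5 it was apart and low in 80 and apart and high in 26. Without control 3, 75 genes reached that SD, without control 1, 167 did, and without control 2, 333 did. These are SDs over 2 arrays and not the same measure as the SD over 3.

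Molting genes were lower on control 3 than on the other arrays as a list, with exceptions. The list median of the deviation from each gene's mean was 0.189 on control 1, 0.0484 on control 2 and -0.183 on control 3, and 16 of the 24 genes were lowest on control 3. The matrix proteins above, the astacin protease nas-37 (9.23, 8.76 and 7.98), qua-1 (9.99, 9.41 and 8.66), the megalin-like receptor lrp-1 (10.24, 10.19 and 9.59) and lin-42 followed this order. The brightest of them, mlt-8 (12.46, 12.38 and 12.28), moved little. The peroxidase mlt-7, which cross-links the new cuticle, ran the other way (8.68, 8.89 and 9.15), and the nuclear receptor nhr-23, a driver of the molting cycle, was even (8.93, 8.78 and 8.78). The fibrillin-like fbn-1 was high on control 1 alone (5.70, 4.38 and 4.27).

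The furrow collagens and the proteins of the apical matrix were drawn together as lists after these values were seen, so their counts describe a choice. All 5 furrow collagens with a probe set of their own had a high spread and were lowest on control 3: dpy-3 gave 8.18, 7.97 and 6.73, dpy-8 7.78, 7.16 and 6.11, dpy-9 6.50, 6.29 and 4.94 and dpy-7 6.05, 5.75 and 4.86. These genes are known to be expressed early within each molting cycle. Of 11 matrix genes 9 had a high spread. Control 3 was apart and low in 6 of them, while lpr-7 (7.56, 7.95 and 7.94) had control 1 apart and low, and let-653 (6.43, 5.80 and 5.34) and fbn-1 had control 1 apart and high.

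**Figure D5:**
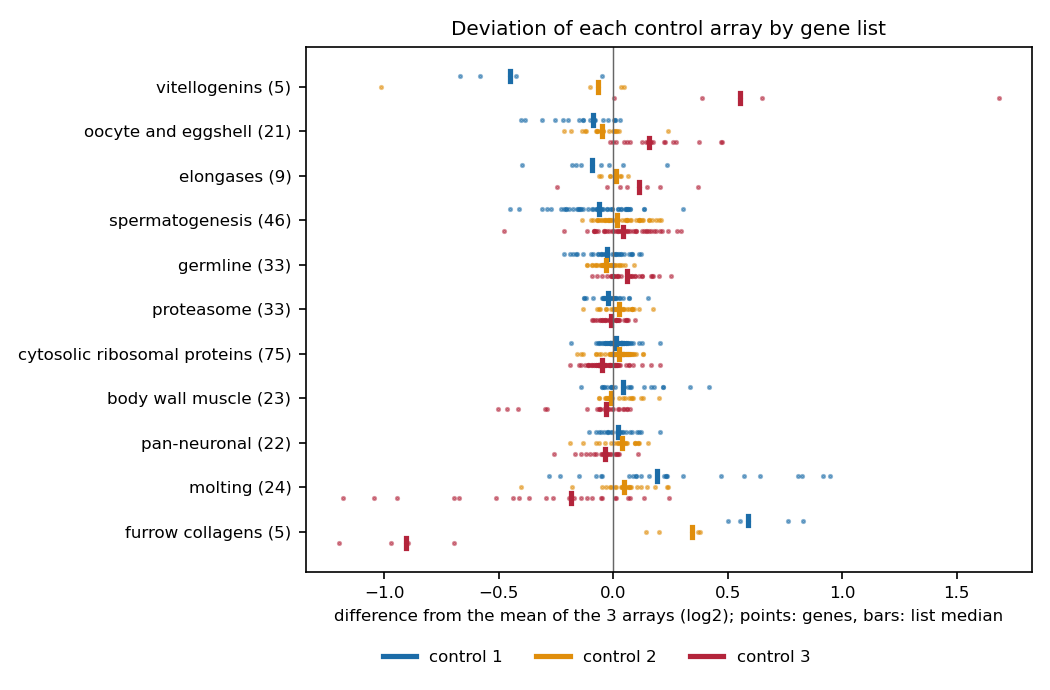
Difference of each control array from a gene's mean over the 3 arrays (horizontal axis, log2 units) for 11 gene lists, with genes as points and list medians as bars. Control 3 (red) lies to the right for vitellogenins (median 0.553) and oocyte genes (0.155) and to the left for molting genes (-0.183) and furrow collagens (-0.905), while ribosomal and proteasome medians stay near 0.

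Oocyte genes and vitellogenins had the opposite side. Of 21 oocyte and eggshell genes 17 were highest on control 3, with a median deviation of -0.0893, -0.0506 and 0.155 on controls 1, 2 and 3. The permeability barrier genes perm-2 (7.27, 7.60 and 8.15) and perm-4 (9.02, 9.42 and 9.78) and the maturation gene oma-2 (9.37, 9.55 and 9.85) had the widest gaps among the bright ones. For vitellogenins the median deviations were -0.453, -0.0681 and 0.553. Pharyngeal abu genes were on the same side. All 7 pharynx genes of high spread belong to that family and had control 3 apart and high, among them abu-6 (9.07, 9.29 and 10.55), abu-7 (9.90, 10.17 and 11.11) and abu-11 (8.53, 8.68 and 9.36). These genes are similar in sequence, so their single values are uncertain. Neither abu-13 (9.78, 9.78 and 9.67) nor abu-14 had a high spread.

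Among collagens of high spread both sides occurred. Control 3 was apart and high in 23 of the 63, such as col-146 (5.44, 5.13 and 6.55) and col-88 (10.13, 10.47 and 10.95), and apart and low in 14, the furrow collagens and bli-1 among them. Control 1 was apart and low in a further 20. Of the 16 hedgehog-related genes of high spread control 3 was apart and low in 8 and apart and high in 2, and control 1 was apart and low in 6. Examples are wrt-1 (8.71, 7.98 and 7.08) and wrt-10 (8.49, 7.80 and 6.90), lowest on control 3, and grl-4 (7.21, 7.48 and 8.32), highest on it.

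In body wall muscle the spread was in 5 of 23 genes, each with control 3 low. They code for proteins of the sarcomere and the calcium store: the obscurin-like unc-89 (9.81, 9.67 and 9.30), the twitchin unc-22 (9.81, 9.61 and 9.02), the titin-like ttn-1 (8.59, 8.26 and 7.67), the ryanodine receptor unc-68 (8.64, 8.63 and 8.01) and the myosin myo-3 (9.40, 9.35 and 8.94). The thin filament genes lev-11 (12.05 ± 0.06) and mup-2 (10.59, 10.53 and 10.51) were even. Long genes tended to the same side on control 3. Among protein-coding genes above the median signal, the 20% with the longest genomic span had a median deviation of -0.0282 on control 3 and 0.0272 on control 1, and the shortest 20% had 0.0156 on control 3 and -0.0325 on control 1. The files hold no measure of RNA quality, and the part of gene length in the muscle and molting values was not tested.

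For scale, the spread within the other groups of 3 arrays was set beside that of the controls, with no test. The median SD of the molting list was 0.240 in controls, against 0.187 in LNA, 0.0962 in GLA and 0.136 in DGLA samples. For vitellogenins it was 0.511 in controls, 0.648 in LNA, 0.0805 in GLA and 0.296 in DGLA samples. For the oocyte list it was 0.142 in controls, 0.180 in LNA, 0.0965 in GLA and 0.0982 in DGLA samples. By list median the controls were thus not the widest group for vitellogenins and oocyte genes, where LNA, the group that holds the arrays of lowest correlation, had the larger value. They were the widest for molting genes and for the 4 adult cuticle collagens (0.430, against 0.312 in LNA, 0.160 in GLA and 0.157 in DGLA samples). The same held for the furrow collagens (0.843, against 0.309, 0.261 and 0.352), a list drawn after the control values were seen. Single genes could differ from these list medians. The SD of vit-5 was larger in controls (1.47) than in LNA samples (0.915), and that of mlt-11 was larger in LNA samples (1.32) than in controls (1.08).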

How the data were processed

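Total RNA was taken with Trizol, labelled as biotinylated cRNA and hybridised to 12 arrays, per the labels. The deposited table holds log2 signals, 1 value per probe set and array, which the authors made with RMA in Affymetrix Expression Console and Transcriptome Analysis Console, per the submitters' processing notes. The genome build and the versions and options of these programs were not given in the sources used here. RMA corrects background, scales all arrays to 1 distribution and pools probes, so a change common to all genes of an array is removed and dim signals are compressed.

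Probe sets were named through the platform annotation, and 25495 of 25546 with 1 symbol matched the RefSeq gene table (WBcel235) by gene ID. A gene was its brightest such probe set over the 3 control arrays (57 genes had more than 1). The values of 10 of these probe sets repeat another's on all arrays. Means, SDs, ranks and list medians were computed with Python 3.11.15, pandas 2.3.3 and numpy 2.4.6 and checked on simulated data. The design holds 1 group, so no test was made and no p-value is given.

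Of 96 gene lists 94 had a member, and 3 lists were added after their values were seen; together they hold 4478 genes, 74 of them in more than 1 list. The members, lists and naming rule were chosen with earlier results of these data known. The rule names the 30 brightest protein-coding and 8 brightest non-coding genes, the 20 with the largest SD above the median signal, the marker genes, and the 3 highest and the lowest of each list; other genes named were chosen after their values were seen. Alternatives left out each array in turn, took other probe sets, genes, summaries or scalings, and are given in the closing section.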

Additional observations from a re-analysis of the deposited data

How the results depend on the processing

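Of 94 lists 44 had a median percentile above 75, and the count was the same with each array left out, with the mean of a gene's probe sets, without repeated probe sets, after quantile normalization and after centring. The count was 35 when ranks ran over protein-coding genes only and 37 when members were averaged. Averaging members also gave 10.02 for body wall muscle, 8.29 for germline against 8.35 for intestine, 4.83 for glia against 3.76 for male-specific genes and 3.96 for sensory cilia, 7.46 for pan-neuronal genes, 10.94 for ribosomal proteins and 2.58 for chemoreceptors. Without control 1 the germline and intestine medians were both 8.37. Leaving out an array put the ribosomal median between 11.23 and 11.29. Between 12 and 13 lists of at least 5 genes had over 20% of members with a high spread under every alternative. The spread itself rested more on single arrays. The number of genes above the median signal with an SD of at least 0.5 was 152, was 97 over protein-coding genes only, and ranged between 75 and 333 with an array left out. Under the same omissions the median SD ranged between 0.146 and 0.314 for molting genes, 0.249 and 0.711 for vitellogenins, 0.0532 and 0.181 for oocyte genes, 0.0324 and 0.0397 for vulval genes and 0.0252 and 0.0536 for the proteasome. In the first 4 lists the lowest value was that without control 3, and the cause was not tested. For vulval genes the value fell below the 0.0511 of all 3 arrays whichever array was left out. Omitting an array leaves 2, so these SDs rest on a pair. No paired analysis was possible because the values come from 1 group and from no test. Dim genes had no background measure here, so the order of signals given among dim genes and lists is a description and not a difference in RNA.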

Other observations

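The 12 protein genes of the mitochondrial genome, listed after their values were seen, had a median signal of 10.31 and 11 of them were in the top 25%. COX1 and COX3 (12.89 ± 0.04, SD, n = 3), subunits of cytochrome oxidase, were the brightest, and the NADH dehydrogenase subunit ND6 was the dimmest and the least even (6.61, 5.96 and 6.28 on controls 1 to 3). The nuclear gene cox-4 of the same complex gave 12.24.

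Argonautes, which bind small RNAs, had a median of 7.69 over 25 genes, with 18 in the top 25%. After csr-1 came the microRNA Argonaute alg-1 (9.89, 9.86 and 9.76) and the piRNA Argonaute prg-1 (9.79, 9.70 and 9.64), and the dimmest was wago-5 (3.39 ± 0.25). The sperm Argonautes alg-3 (7.80, 7.63 and 7.62) and alg-4 (7.18, 7.36 and 7.12) were both in the top 25%.

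Within the actin and tubulin list the ubiquitous tubulins tbb-1 (11.25 ± 0.02) and tba-1 (10.99 ± 0.08) stood with act-5 at the top, and tba-5, a tubulin of sensory cilia, stood at the bottom (2.70 ± 0.08). The Rab GTPases rab-1 (12.57 ± 0.06), rab-11.1 (12.09 ± 0.08) and rab-7 (11.73 ± 0.04) were bright, and rab-28, which acts in cilia, was dim (3.66, 3.88 and 3.73). Of the superoxide dismutases sod-1 gave 9.01, 8.97 and 9.15, while the inducible sod-3 (5.02 ± 0.13) and sod-5 (4.32, 3.74 and 4.00) were near or below the median of all genes.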
